A study of Mus musculus with 48 samples.

Results

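The collagen genes were followed in RNA-seq of mouse cerebral cortex after inhalation of nPM, a re-aerosolized nano-sized fraction of urban particulate matter. Members were all genes whose symbol starts with Col, a number, the letter a and a second number, and which both deposited expression tables list. Of 16952 genes in both tables, 45 matched. The symbol *Col4a3bp* also matched but belongs to the ceramide transfer protein, so 44 collagen chain genes were kept. They fall into 11 fibrillar chains, 6 chains of the collagen IV network, 6 of the collagen VI family, 9 FACIT chains (fibril-associated collagens with interrupted helices), 4 transmembrane chains, 2 multiplexins, 3 short-chain collagens and 3 others.

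The 48 mice formed 12 groups of 4. C57BL/6J mice (B6, wild type) were 4 months old and were exposed for 8 weeks. APOE-TR mice, in which human APOE3 or APOE4 replaces the mouse *Apoe* gene in every cell by targeted replacement, were 6 months old and were exposed for 15 weeks. Each of B6, APOE3 and APOE4 had females and males, and within each sex 4 mice breathed nPM and 4 breathed filtered air, for 5 h on 3 days per week. The wild-type and the APOE-TR cohorts breathed different batches of nPM in exposures run apart, and their values were deposited in separate tables, so genotype cannot be told apart from age, weeks of exposure, nPM batch and table.

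Collagens are secreted or membrane proteins in which 3 chains wind into a triple helix that needs a glycine in each triplet of residues. In brain, collagen IV chains form the scaffold of vascular basement membranes, fibrillar collagens and collagen VI are made mainly by fibroblasts of the meninges and of large vessels, and a few collagens, among them *Col19a1* and *Col25a1*, are made by neurons. The chains are hydroxylated and glycosylated in the endoplasmic reticulum, folded with the help of the chaperone *Serpinh1*, trimmed by proteinases such as *Bmp1*, and bound on cells by integrins and discoidin domain receptors.

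The repeat that defines the family is shown for 6 members on which the results below turn. Each stretch is coding sequence from the GENCODE annotation of mm10 (GRCm38), printed 5′ to 3′ on the coding strand, with the glycine codons in capitals. *Col1a2* (chr6:4515481-4515534, plus strand, exon 8), *Col4a2* (chr8:11429447-11429500, plus strand, exon 29), *Col4a1* (chr8:11247042-11247095, minus strand, exon 3), *Col6a1* (chr10:76719623-76719676, minus strand, exon 9) and *Col19a1* (chr1:24296760-24296813, minus strand, exon 41) are shown by 54 bases with 6 glycine codons, and *Col20a1* (chr2:181013236-181013262, plus strand, exon 29) by 27 bases with 3.
Col1a2: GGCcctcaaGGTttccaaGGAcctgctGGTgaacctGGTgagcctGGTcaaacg
Col4a1: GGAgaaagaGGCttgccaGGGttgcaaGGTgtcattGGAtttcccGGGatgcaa
Col4a2: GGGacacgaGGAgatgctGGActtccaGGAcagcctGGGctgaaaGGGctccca
Col6a1: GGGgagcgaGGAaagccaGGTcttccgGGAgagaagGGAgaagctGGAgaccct
Col19a1: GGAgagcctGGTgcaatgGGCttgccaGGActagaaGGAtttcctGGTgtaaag
Col20a1: GGGccaccaGGAgccaaaGGAgagaag

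All 44 members carried an uninterrupted run of glycine triplets, of 23 to 344 triplets with a median of 58.5, whereas the longest run in *Col4a3bp* was 2. The runs of the main fibrillar chains were the longest, with 344 triplets in *Col3a1*, 339 in *Col1a2* and 338 in *Col1a1*. Chains of the basement membrane were interrupted more often: the longest run was 40 triplets in *Col4a1* and 66 in *Col4a2*. Several members are neighbours in the genome. *Col4a1* and *Col4a2* lie head to head on chromosome 8 with gene models that overlap by 23 bases, so reads there could belong to either gene where strand was not used in counting. *Col4a4* and *Col4a3* are separated by 70 bases on chromosome 1, and *Col6a2* and *Col6a1* by 85.2 kb on chromosome 10.

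Promoter windows from RefSeq (250 bases before to 50 after the start, GRCm38.p6) were found for 35 of the 44 members, 38 windows in all. GGGCGG, the core of the GC box, was present on either strand in 60.5% of them, against 35.7% of 32851 windows of all genes. CCAAT was present in 34.2% against 37.4%, and TATAAA in 13.2% against 13.6%. These are matches of letters and were not tested. The starts of *Col4a1* and *Col4a2* lie 21 bases apart and their windows share 78 bases. Whether their motif matches lie in the shared bases was not examined.

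Levels are the authors' counts-per-million values (CPM). APOE-TR libraries held an estimated 17.8 to 31.3 M reads, with every female (17.8 to 22.3 M) below every male (22.4 to 31.3 M), whereas B6 libraries ranged from 2.05 to 24.4 M. A gene without reads could be present at up to 0.0659 to 0.144 CPM in an APOE-TR mouse and 0.0775 to 0.761 CPM in a B6 mouse, the level of 3 reads, counting error only. Mouse *Apoe* was at 8.81 to 30.7 CPM in APOE-TR mice against 164 to 503 CPM in B6 mice, and *Xist* and *Ddx3y* separated the sexes in both tables. The neuronal markers *Rbfox3* and *Snap25* had reads in every mouse, as had the endothelial marker *Cldn5*. The meningeal fibroblast marker *Dcn* had reads in all APOE-TR mice, at 2.84 to 17.6 CPM, but none in 2 of the B6 mice.

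APOE3 control females stood apart from APOE4 females and APOE-TR males before any collagen was considered. For each mouse, a length slope was computed: the change of its log2 level, relative to the mean of its table, per doubling of exon length. It ran from -0.525 to -0.107 in APOE3 control females and from -0.211 to -0.00582 in APOE3 nPM females, against -0.0976 to 0.0276 in the APOE4 females and 0.0545 to 0.152 in the APOE-TR males. A negative slope means that long transcripts read low in that library. Collagen transcripts are long, with a median exon length of 6.21 kb (2.79 to 12.2 kb) against 3.17 kb over 16897 genes. The length slope therefore moves with each collagen comparison that involves APOE3 females. Values with this slope as a covariate, or the slopes themselves, are given beside some of the nPM, allele and sex results, as are cell type markers that moved with them. Slopes of B6 mice are not given. In whole cortex, fewer cells of a type cannot be told apart from less RNA per cell.

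Collagen levels per kb of exon spanned a wide range. In APOE-TR mice the median was highest for *Col6a1*, a chain of the microfibrils around cells, at 12.05 CPM per kb. It was followed by the interneuron-associated FACIT chain *Col19a1* at 8.00, the neuronal transmembrane collagen *Col25a1* at 4.88, and the vascular chains *Col4a2* at 4.16 and *Col4a1* at 3.03 CPM per kb. Fibrillar collagens of the meninges were far lower, with 0.789 CPM per kb for *Col1a2*, 0.288 for *Col1a1* and 0.106 for *Col3a1*. The lowest were *Col6a6* at 0.0258 and *Col4a4*, a chain best known from the glomerular basement membrane, at 0.0322 CPM per kb.

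**Figure D1:**
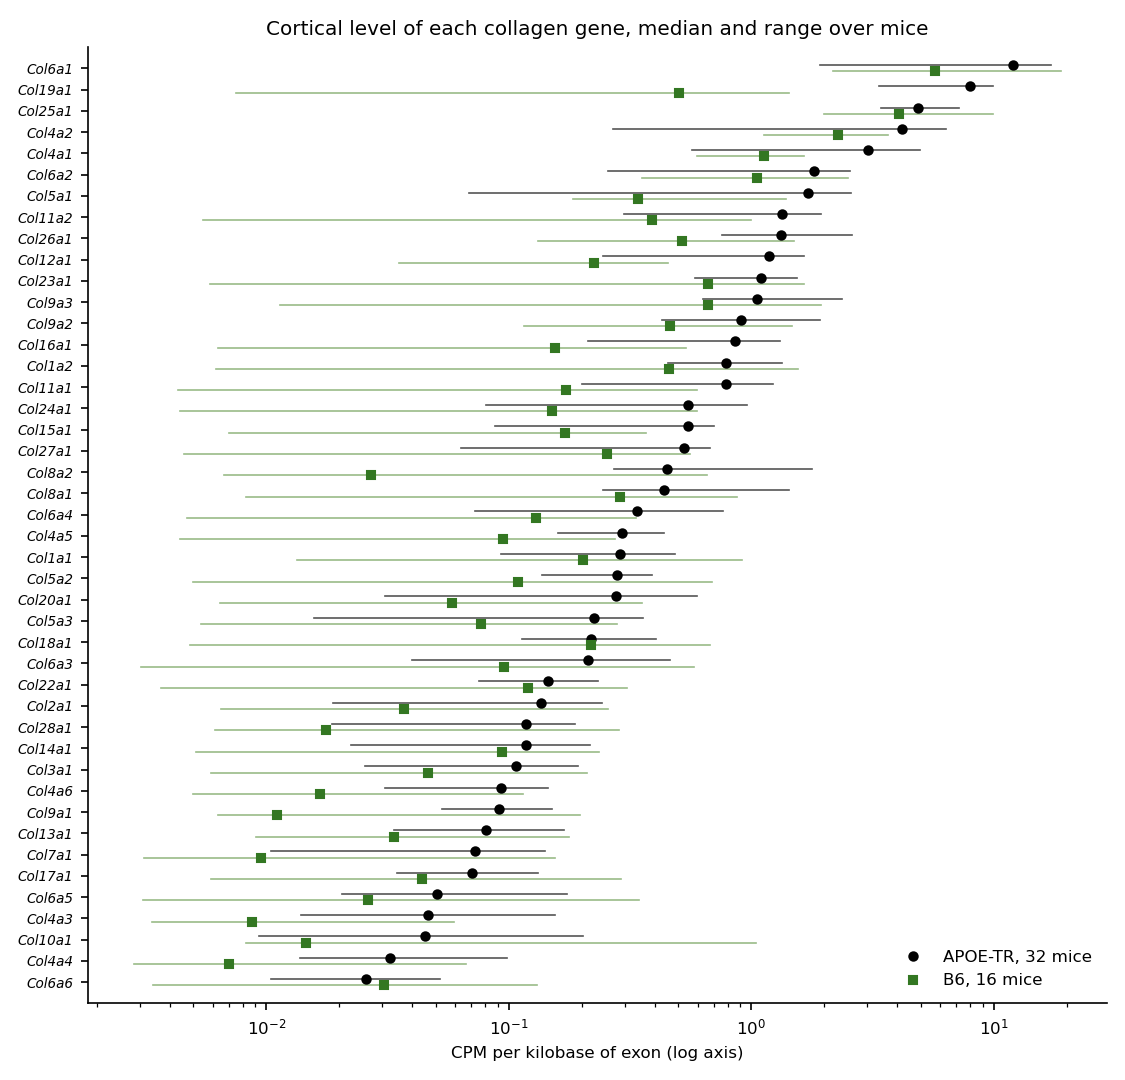
Level of each of the 44 collagen genes in CPM per kb of exon (x axis, log scale), ordered by the APOE-TR median, with circles for the median of the 32 APOE-TR mice, squares for that of the 16 B6 mice and lines from the lowest to the highest mouse. Col6a1 is highest in both tables (12.05 and 5.74 CPM per kb), and the line of Col19a1 in B6 mice ends below the one in APOE-TR mice.

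B6 mice shared much of this order. *Col6a1* (5.74 CPM per kb), *Col25a1* (4.04), *Col4a2* (2.27), *Col4a1* (1.12) and *Col6a2* (1.05) were the highest there. *Col19a1* was at 0.505 CPM per kb in B6 mice, and its level was 0.0330 to 6.33 CPM over the 16 B6 mice and 14.9 to 44.0 CPM over the 32 APOE-TR mice, with no overlap between the tables. These values stand side by side only, because the tables were normalized separately. In APOE-TR mice 43 of the 44 collagens had reads in every mouse, and *Col10a1*, made by growth plate cartilage, lacked them in 2 mice. In B6 mice 10 collagens had reads in every mouse: *Col1a1*, *Col4a1*, *Col4a2*, *Col5a1*, *Col6a1*, *Col6a2*, *Col9a2*, *Col12a1*, *Col25a1* and *Col26a1*. Fits that include all mice therefore tested these 10.

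Some collagens rose and fell together from mouse to mouse within groups. In the 32 APOE-TR mice, log2 levels of *Col4a1* and *Col4a2*, the chains of the same heterotrimer, had a Pearson r of 0.954 and a Spearman rho of 0.949 after centring on the group mean. *Col6a1* and *Col6a2* gave r = 0.870 (rho = 0.727), and *Col1a2* and *Col3a1* r = 0.604 (rho = 0.613). *Col1a2* moved with the mean of 12 meningeal fibroblast markers (r = 0.852, rho = 0.849), and *Col4a1* with the mean of 10 endothelial markers (r = 0.751, rho = 0.720). Between *Col4a1* and *Col1a2*, a vascular and a meningeal chain, r was -0.253 (rho = -0.304). Without the 2 mice farthest from the median of the first gene, r was 0.915 for *Col4a1* with *Col4a2*, 0.814 for *Col6a1* with *Col6a2*, 0.593 for *Col1a2* with *Col3a1*, and 0.823 and 0.722 for the pairs with meningeal and endothelial markers. Permutation tests (100000 resamples within groups, Benjamini-Hochberg over 14 pairs) gave an adjusted p of 4.67e-05 for *Col4a1* with *Col4a2*, from the smallest p the resamples can give, 0.00346 for *Col1a2* with *Col3a1* and 0.246 for *Col4a1* with *Col1a2*.

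In the 16 B6 mice *Col1a2* again went with the meningeal markers (r = 0.887, rho = 0.853, adjusted p = 0.000747; r = 0.808 without 2 mice) and *Col6a1* with *Col6a2* (r = 0.855, rho = 0.829; r = 0.854 without 2 mice), in the same permutation test. *Col4a1* and *Col4a2* gave r = 0.0139 there (rho = 0.0647, adjusted p = 0.947, permutation test), and r = 0.0540 without 2 mice. B6 values of *Col4a1* with the endothelial markers and with *Col1a2* are not given. The pair *Col1a2* and *Col3a1* reached r = 0.808 (rho = 0.797, adjusted p = 0.0147), but 0.640 (adjusted p = 0.0747) without the 2 mice, so that relation rests on them. *Col1a2* and *Col3a1* both lacked reads in nPM females 50 and 51. *Col3a1* also lacked them in control female 42, control males 0, 3 and 6 and nPM male 10. Mice without reads entered the correlations at the lowest value of their library. All pairs share the depth of their library, which varied most in B6 mice, and its length slope; its part in these correlations was not tested.

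Whether nPM changed collagen levels was asked first over all 48 mice, with sex and genotype as terms. No collagen of the 10 tested was called by limma at an unadjusted p under 0.005, where 1.49% of 11072 genes were called; the study used the same threshold for nPM. With limma-voom the count was also 0, of 44. At an unadjusted p under 0.05, 5 of the 10 were higher with nPM and 0 lower, against 7.18% of all genes higher and 7.32% lower. The median log2 change was 0.31 over the 10 collagens and -0.01 over all genes. The 5 were *Col26a1* (log2 change 0.40, SE 0.16, limma adjusted p = 0.301), *Col4a1* (0.31, SE 0.13), *Col5a1* (0.50, SE 0.22), *Col4a2* (0.41, SE 0.18) and *Col6a2* (0.31, SE 0.15). With the 24 females alone, *Col6a1* (0.80, SE 0.24) and *Col26a1* (0.68, SE 0.21) passed the threshold, 2 of 12 tested against 3.45% of genes, and in the 24 males alone 0 of 19 did, against 0.0579%. Within the tables, 0 of 43 were called in the 32 APOE-TR mice (0.714% of genes) and 0 of 10 in the 16 B6 mice (0.532%). Without B6 control male 0, *Col26a1* alone passed over all mice (0.46). With the length slope as a covariate *Col26a1* also passed (0.46, limma unadjusted p = 0.00486), where 165 of 11072 genes did, and *Col4a1* was at 0.19 (limma unadjusted p = 0.0416). Of the cell type markers, 0 of 10 endothelial, 0 of 7 mural and 1 of 3 meningeal fibroblast markers tested reached an unadjusted p under 0.05, the last lower with nPM.

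**Figure D2:**
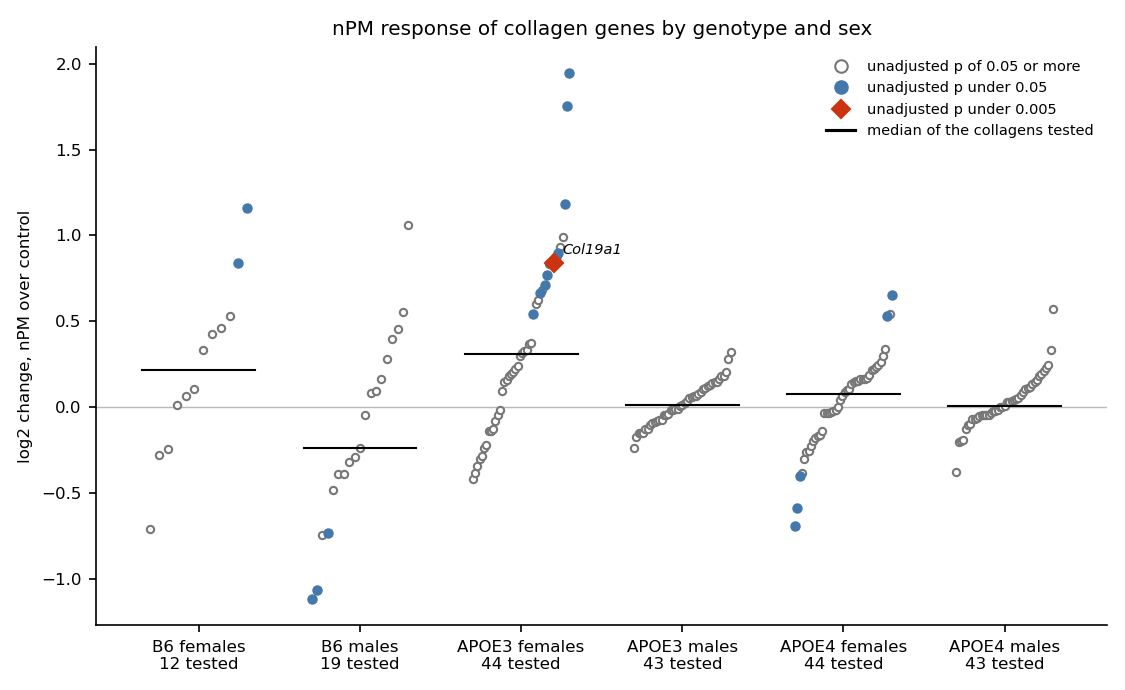
Log2 change with nPM (y axis, nPM over control, limma) of each collagen tested in the 6 strata of genotype and sex (x axis), each stratum ordered by size, with blue points at an unadjusted p under 0.05, a red diamond under 0.005, open points otherwise and a bar at the median. Col19a1 in APOE3 females is the only diamond, the APOE3 female median lies at 0.31 over 44 collagens, and no collagen of the APOE-TR males is filled.

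In B6 females the 4 control mice had *Col26a1* at 0.368, 0.405, 0.621 and 0.650 CPM, and the 4 nPM mice at 0.474, 2.05, 2.20 and 2.98 CPM. All but 1 nPM mouse lay above the controls. That mouse, number 53, held 3 reads of *Col26a1*, and control mouse 43 (0.621 CPM) held 5. The log2 change was 1.16 (SE 0.39, limma unadjusted p = 0.00977, adjusted p = 0.389). *Col6a1* was at 8.89, 9.23, 12.9 and 19.7 CPM in controls and 14.1, 21.4, 22.2 and 30.4 CPM with nPM, a log2 change of 0.84 (SE 0.30, limma unadjusted p = 0.0144, adjusted p = 0.390), and the groups overlapped. None of the 12 collagens tested was called by limma, nor any by limma-voom, where limma called 1.19% of genes, and 2 were higher and 0 lower at an unadjusted p under 0.05 (5.79% of genes higher and 4.63% lower). Leaving out 1 mouse put *Col6a1* past the threshold without control mouse 42 (1.07) or nPM mouse 51 (1.03), and *Col26a1* without nPM mouse 53 (1.56). In this stratum *Col1a1* was at 0.241, 0.416, 0.462 and 4.04 CPM with nPM, so that mouse 52 alone held a high level. The lowest value, in mouse 53, was 1 read.

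In B6 males the change of *Col6a1*, the most abundant collagen, had the other sign; the difference between the sexes was not tested within B6. Control males had 27.4, 32.7, 57.4 and 77.4 CPM and nPM males 20.2, 24.9, 31.1 and 33.5 CPM. The upper control mice were above every nPM mouse, but the groups overlapped, and the log2 change was -0.74 (SE 0.31, limma unadjusted p = 0.0338, adjusted p = 0.999). *Col6a3*, the large chain of the same collagen, was at 1.27, 1.38, 5.30 and 6.31 CPM in controls and 0.970, 1.06, 1.17 and 1.33 CPM with nPM (log2 change -1.07, SE 0.45, limma unadjusted p = 0.0329). *Col1a1* was at 0.997, 2.28, 3.30 and 5.41 CPM in controls and 0.0789, 1.19, 1.46 and 1.80 CPM with nPM (log2 change -1.12, SE 0.50, limma unadjusted p = 0.0411). Its lowest value, in nPM male 10, was 1 read. None of 19 collagens was called by limma, where 0.234% of genes were, and none by limma-voom. At an unadjusted p under 0.05, 0 were higher and 3 lower, against 2.34% of genes higher and 2.03% lower. With the length slope as a covariate *Col6a3* passed the threshold at -1.20.

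APOE3 females held the only collagen called for nPM in any stratum. *Col19a1* was at 14.9, 18.1, 18.7 and 19.4 CPM in the 4 controls and at 22.5, 29.6, 33.8 and 39.7 CPM in the 4 nPM mice. The groups did not overlap, and the APOE3 control males had 34.2 to 40.8 CPM. *Col19a1* was 1.79-fold higher with nPM on the log2(CPM + 0.5) scale (log2 change 0.84, SE 0.19, limma unadjusted p = 0.00200, adjusted p = 0.230). It was 1 of 44 collagens tested, where 0.677% of genes were called. On reads recovered from the CPM, edgeR also called 1 and DESeq2 called 2 (467 of 16386 genes), the second being *Col5a1*. The call was lost with the length slope as a covariate (log2 change 0.54), and without nPM mouse 59 (0.79), 67 (0.70) or 70 (0.85).

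**Figure D3:**
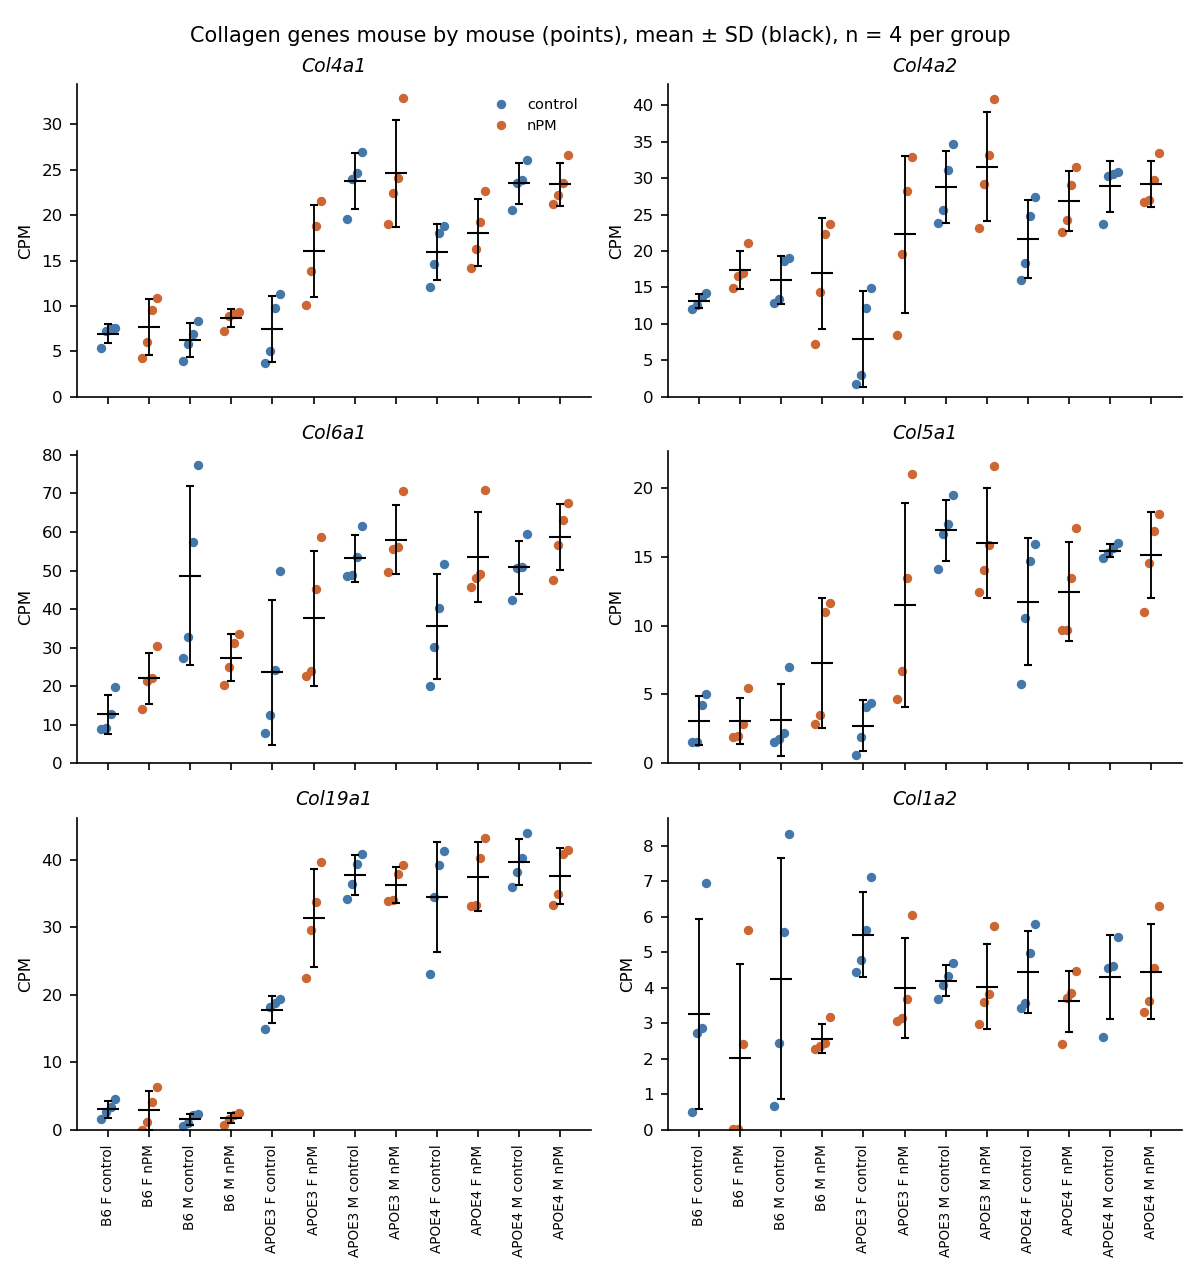
CPM (y axis, from 0, a separate scale for each gene) of 6 collagens in every mouse of the 12 groups (x axis), with 1 point per mouse in blue for control and orange for nPM, and black marks for the group mean ± SD (n = 4). Col19a1 in APOE3 females runs from 14.9 to 19.4 CPM in controls and from 22.5 to 39.7 CPM with nPM, and Col4a1 in APOE3 control females (3.75 to 11.3 CPM) lies below every APOE-TR male (19.1 to 32.9 CPM).

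The vascular and fibrillar chains of the same mice were spread widely. *Col4a1* was at 3.75, 4.99, 9.82 and 11.3 CPM in APOE3 control females and at 10.1, 13.9, 18.8 and 21.5 CPM with nPM (log2 change 1.19, SE 0.39, limma unadjusted p = 0.0147, adjusted p = 0.230). *Col4a2* was at 1.73, 3.01, 12.2 and 14.9 CPM in controls and at 8.40, 19.5, 28.3 and 32.9 CPM with nPM (log2 change 1.76, SE 0.70, limma unadjusted p = 0.0345). Both overlapped between groups, and in both the same 2 control mice were lowest. *Col5a1*, which starts the assembly of collagen fibrils, was at 0.577, 1.90, 4.10 and 4.39 CPM in controls and at 4.70, 6.68, 13.5 and 21.1 CPM with nPM (log2 change 1.95, SE 0.60, limma unadjusted p = 0.0103). Its groups did not overlap, yet it missed the threshold.

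Over the 44 collagens of APOE3 females, 31 log2 changes were above 0 and 13 below, against 49.7% of all genes above, and the median was 0.31 against -0.00298 over all genes. At an unadjusted p under 0.05, 10 were higher and 0 lower, against 10.9% of genes higher and 10.1% lower. By class, 3 of 11 fibrillar, 2 of 6 collagen IV, 0 of 6 collagen VI and 3 of 9 FACIT chains were among the 10. *Col3a1* and *Col1a2*, fibrillar chains of the meninges, did not pass. *Col3a1* was at 0.453, 0.625, 0.750 and 1.07 CPM in controls and 0.171, 0.331, 0.459 and 0.614 CPM with nPM (log2 change -0.42, SE 0.19, limma unadjusted p = 0.0597). *Col1a2* was at 4.46, 4.78, 5.62 and 7.13 against 3.07, 3.15, 3.68 and 6.07 CPM (-0.38, SE 0.22, limma unadjusted p = 0.120). Beside these, all 12 meningeal fibroblast markers were below 0, 5 of them at an unadjusted p under 0.05 and none called (median log2 change -0.67), with summed levels of 76.9 to 219 CPM in controls and 67.2 to 110 CPM with nPM. The 10 endothelial markers gave 0 of 10 at that p (median 0.08), with sums of 50.5 to 84.1 and 55.7 to 80.8 CPM. Neuron markers summed to 5030 to 7055 and 5291 to 5764 CPM. Their smallest p values belonged to *Syt1* (log2 change 0.28, limma unadjusted p = 0.0255) and *Slc17a7* (0.85, limma unadjusted p = 0.0309), and the other changes are not given. Microglia markers summed to 271 to 353 and 197 to 261 CPM, astrocyte markers to 2745 to 4015 and 3165 to 3921 CPM, and mural markers to 116 to 163 and 98.5 to 121 CPM. The part of these lists and of the length slope in the collagen levels was not tested beyond the covariate fit above.

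In APOE3 males none of 43 collagens was called by limma, edgeR or DESeq2, where limma called 0.154% of genes. None reached an unadjusted p under 0.05, against 2.24% of genes, and the median log2 change was 0.01. The smallest p values belonged to *Col4a3*, a chain of the kidney and cochlear basement membranes (log2 change 0.28, SE 0.15, limma unadjusted p = 0.0915), and *Col7a1*, the anchoring fibril collagen of skin (0.18, SE 0.12, limma unadjusted p = 0.164). *Col4a1* was at 19.6, 23.96, 24.7 and 26.9 CPM in control males and 19.1, 22.4, 24.1 and 32.9 CPM with nPM, and the ranges nested.

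In APOE4 females 0 of 44 collagens were called by limma and by edgeR, where limma called 0.260% of genes, and 2 were higher and 3 lower at an unadjusted p under 0.05 (2.83% and 2.77% of genes). *Col9a3*, a FACIT chain of cartilage, was at 3.51, 3.76, 5.55 and 7.21 CPM in controls and 2.67, 2.97, 3.18 and 3.27 CPM with nPM. The groups did not overlap. Its log2 change was -0.59 (SE 0.19, limma unadjusted p = 0.0104, adjusted p = 0.752), DESeq2 called it (-0.73), and it passed without control mouse 26 (-0.72). *Col3a1* was at 0.423, 0.604, 0.656 and 0.701 CPM in controls and 0.141, 0.295, 0.433 and 0.469 CPM with nPM (log2 change -0.40, SE 0.15, limma unadjusted p = 0.0189). *Col6a1* was at 19.99, 30.1, 40.4 and 51.6 CPM in controls and 45.7, 48.1, 49.1 and 70.8 CPM with nPM (log2 change 0.65, SE 0.25, limma unadjusted p = 0.0243), and it passed without control mouse 38. Meningeal fibroblast markers summed to 85.6 to 172 CPM in controls and 57.2 to 102 CPM with nPM, with 1 of 12 called lower, and choroid plexus markers to 37.5 to 1170 and 19.3 to 40.5 CPM; their part in *Col3a1* and *Col9a3* was not tested.

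APOE4 males showed 0 of 43 collagens called by limma, edgeR or DESeq2 (limma called 0.178% of genes), 0 at an unadjusted p under 0.05 (4.19% of genes), and a median log2 change of 0.01. *Col1a1* was at 0.991, 1.31, 1.40 and 1.95 CPM in controls and 1.30, 1.89, 2.07 and 2.31 CPM with nPM (log2 change 0.33, SE 0.17, limma unadjusted p = 0.0749). The groups overlapped. *Col14a1*, a FACIT chain on fibrils of connective tissue, had a log2 change of 0.19 (SE 0.10, limma unadjusted p = 0.0858). Without nPM mouse 33, *Col6a4* passed the threshold.

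The nPM response of females and of males was compared directly over all 48 mice. Of 10 collagens tested, 0 were called by limma at a 5% false discovery rate (FDR), as were 0 of 11072 genes (0%), and limma-voom also gave 0. At an unadjusted p under 0.05, 3 were higher in females and 0 lower, against 6.20% of genes higher and 7.55% lower. *Col6a1* had the smallest p, with a log2 change larger by 0.92 in females (SE 0.29, limma unadjusted p = 0.00233, adjusted p = 0.218), followed by *Col4a2* (0.78, SE 0.30) and *Col26a1* (0.55, SE 0.27). Without APOE3 control female 52 the difference for *Col6a1* was 1.08 and was called (limma adjusted p = 0.0416). With the length slope as a covariate it was 0.83 (limma adjusted p = 0.287), and 0 collagens were called. No endothelial and no meningeal marker tested reached an unadjusted p under 0.05 for this difference, and 1 of 7 mural markers was higher at that p. Between APOE4 and APOE3 mice, averaged over sexes, the nPM response differed for 0 of 43 collagens by limma, edgeR or DESeq2, and limma called 0 of 15965 genes (0%). Here 0 were higher and 4 lower in APOE4 at an unadjusted p under 0.05 (4.82% of genes higher and 5.74% lower), led by *Col19a1* (-0.35, SE 0.15, limma adjusted p = 0.443) and *Col5a1* (-0.87, SE 0.39). With the length slope as a covariate these were -0.23 and -0.41, and 0 collagens were called. At an unadjusted p under 0.05, 1 of 10 endothelial, 0 of 10 mural and 0 of 12 meningeal markers were lower and none higher.

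The APOE allele was compared next. Over all 48 mice, APOE4 against APOE3 gave 0 of 10 collagens at a 5% FDR by limma, where 0.370% of genes were called, and 1 by limma-voom (*Col20a1*), with 2 higher and 0 lower at an unadjusted p under 0.05 (7.94% of genes higher and 6.60% lower). These were *Col4a2* (log2 difference 0.53, SE 0.22, limma adjusted p = 0.303) and *Col6a2* (0.38, SE 0.18). The difference for *Col4a2* turned to -0.04 in the 16 APOE-TR males alone, to -0.01 in the 32 APOE-TR mice with the length slope as a covariate, and to -0.09 without APOE3 females. Beside these, the pericyte marker *Rgs5* was the marker called among 7 mural cell markers, lower in APOE4 (-0.39, SE 0.09, limma adjusted p = 0.0314), and all 10 endothelial markers were below 0 with none called.

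Restricting the fit to the 32 APOE-TR mice opened 43 collagens to the test. *Col20a1*, a FACIT chain, rose in APOE4 (log2 difference 0.62, SE 0.12, limma adjusted p = 0.00180), as did *Col11a1* (0.53, SE 0.15, limma adjusted p = 0.0373) and *Col11a2* (0.54, SE 0.16, limma adjusted p = 0.0413), minor fibrillar chains known from cartilage and inner ear. *Col17a1*, the transmembrane collagen of hemidesmosomes, fell by 0.25 on the log2 scale (SE 0.07, limma adjusted p = 0.0373). These 4 calls compare with 2.28% of genes higher and 3.65% lower. With the length slope added, 4 were called again (2.74% of genes): *Col20a1* (0.42, limma adjusted p = 0.00753) and *Col17a1* (-0.31, limma adjusted p = 0.0142) held, *Col9a2* (0.38, limma adjusted p = 0.00260) and *Col6a5* (-0.44, limma adjusted p = 0.0390) joined, and *Col11a1* (0.29, limma adjusted p = 0.254) and *Col11a2* (0.24, limma adjusted p = 0.270) were lost.

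Mouse by mouse, *Col20a1* was low in both alleles. In control females it was at 0.158, 0.240, 0.557 and 0.789 CPM in APOE3 and 1.33, 1.56, 1.66 and 1.80 CPM in APOE4, a log2 difference of 1.24 (SE 0.22, limma adjusted p = 0.0765). In control males it was at 1.01, 1.24, 1.48 and 1.52 CPM against 1.75, 1.87, 2.11 and 2.14 CPM, a log2 difference of 0.45 (SE 0.12, limma adjusted p = 0.240). Neither pair of groups overlapped. With nPM the groups overlapped in both sexes: females had 0.548, 0.975, 1.18 and 1.20 CPM in APOE3 and 1.15, 1.20, 1.23 and 3.07 CPM in APOE4, and males 1.20, 1.36, 1.82 and 1.95 CPM against 1.57, 1.85, 2.22 and 2.56 CPM. The lowest of these libraries held 3 reads of *Col20a1*. In the 16 males alone, which share similar length slopes, its difference was 0.37 (SE 0.10, limma adjusted p = 0.0640).

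**Figure D4:**
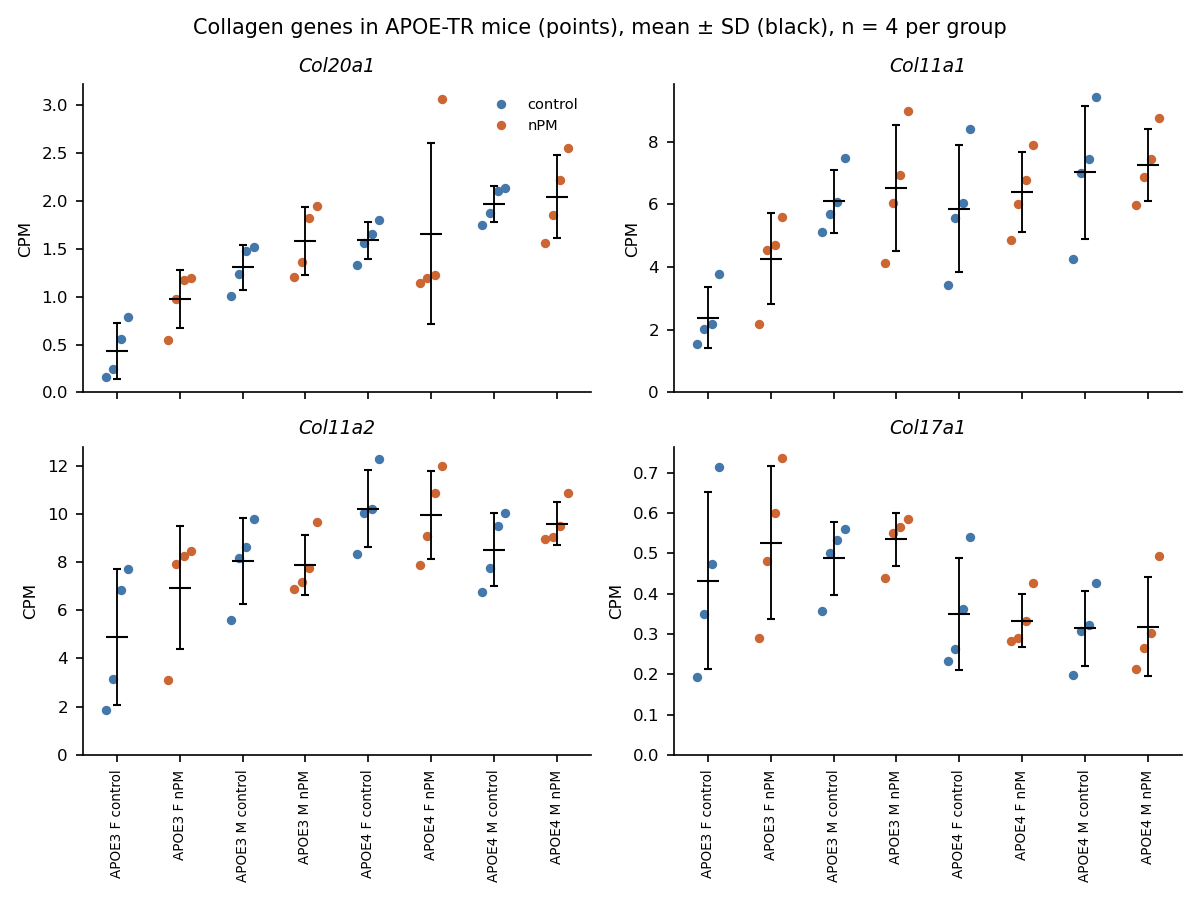
CPM (y axis, from 0, a separate scale for each gene) of the 4 collagens called between APOE alleles in each of the 32 APOE-TR mice (x axis by allele, sex and treatment), with 1 point per mouse in blue for control and orange for nPM, and black marks for the group mean ± SD (n = 4). Col20a1 of control mice does not overlap between alleles in either sex, and most APOE4 males lie below most APOE3 males for Col17a1.

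*Col11a1* and *Col11a2* stood farthest apart between alleles in control females. *Col11a1* was at 1.54, 2.02, 2.19 and 3.79 CPM in APOE3 control females and 3.44, 5.57, 6.04 and 8.39 CPM in APOE4 control females, which overlapped by 1 mouse of each group. *Col11a2* was at 1.87, 3.17, 6.83 and 7.70 CPM against 8.34, 10.05, 10.2 and 12.3 CPM, without overlap. In control males the alleles overlapped for both genes, with 5.13 to 7.49 against 4.27 to 9.42 CPM of *Col11a1* and 5.60 to 9.80 against 6.75 to 10.04 CPM of *Col11a2*.

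*Col17a1* was the collagen called in males alone, 1 of 43 where 1.83% of genes were called (log2 difference -0.31, SE 0.08, limma adjusted p = 0.0467). APOE3 males had 0.357, 0.499, 0.532 and 0.560 CPM as controls and 0.439, 0.550, 0.564 and 0.584 CPM with nPM. APOE4 males had 0.199, 0.308, 0.321 and 0.427 CPM as controls and 0.212, 0.264, 0.302 and 0.494 CPM with nPM. Most APOE3 males were above most APOE4 males, with overlap in both treatments, at levels of 22 reads or fewer. In the 16 females alone, 9 of 44 collagens were called higher and 0 lower, where 11.5% of genes were called higher and 12.2% lower. Besides *Col20a1* (0.87), *Col11a1* (0.90) and *Col11a2* (0.90) these were *Col14a1* (0.40), *Col19a1* (0.63), *Col24a1* (0.91), *Col26a1* (0.60), *Col5a1* (1.21) and *Col4a1* (0.71). Whether the allele effect differed between the sexes was not tested.

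Control females gave the largest allele differences of the 4 strata. No collagen of 44 was called by limma or edgeR at a 5% FDR, where limma called 0.232% of genes, but 18 were higher and 0 lower in APOE4 at an unadjusted p under 0.05, against 20.8% of genes higher and 20.4% lower. DESeq2 called 9. The median log2 difference was 0.40 over the collagens and -0.00276 over all genes. *Col19a1* was at 14.9 to 19.4 CPM in APOE3 and 23.1, 34.5, 39.2 and 41.2 CPM in APOE4, without overlap (log2 difference 0.98, SE 0.20, limma adjusted p = 0.0765). The length slopes of these mice were -0.525 to -0.107 in APOE3. Without APOE3 control female 52, 21 collagens were called, where 6403 of 16467 genes were, and without APOE4 control female 7, 1 was (*Col19a1*, 1.16).

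The other allele strata held fewer small p values. In control males 0 of 43 collagens were called by limma, edgeR or DESeq2 (limma called 0.439% of genes), with 3 higher and 2 lower at an unadjusted p under 0.05 (2.45% and 3.36% of genes). After *Col20a1* came *Col9a2*, a FACIT chain of cartilage, at 1.25, 1.54, 1.86 and 2.24 CPM in APOE3 and 2.11, 2.28, 2.38 and 2.91 CPM in APOE4 (log2 difference 0.41, SE 0.14, limma adjusted p = 0.602). In nPM females 0 of 44 were called by the same 3 tools (0.145% of genes), with 4 higher and 0 lower at an unadjusted p under 0.05 (4.69% and 4.44% of genes), led by *Col9a2* (0.43, SE 0.14, limma adjusted p = 0.480) and *Col14a1* (0.38, SE 0.12). In nPM males 0 of 43 were called (0.498% of genes), with 1 higher and 3 lower at that p (4.89% and 5% of genes), led by *Col17a1* (-0.35, SE 0.11, limma adjusted p = 0.341) and *Col11a2* (0.28, SE 0.11). Endothelial markers were below 0 in APOE4 for 10 of 10 in nPM males, 2 of them called, and choroid plexus markers were above 0 for 6 of 6 in control males (median log2 difference 1.40). Mural cell markers were below 0 for 9 of 10 in both male strata. Their sum was 153 to 178 CPM in APOE3 and 133 to 151 CPM in APOE4 control males, and 166 to 181 against 122 to 148 CPM in nPM males, without overlap in either. In nPM males *Rgs5* was called lower (-0.50, SE 0.07, limma adjusted p = 0.0105). In control males 0 of the 10 were called, and *Rgs5* was at -0.28 (limma adjusted p = 0.165). The part of these markers in the collagen differences was not tested.

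Sex was the factor with most collagen calls. Over all 48 mice, 6 of 10 collagens were lower in females at a 5% FDR by limma and 0 higher, where 18.4% of genes were lower, 18% higher and 36.4% called in all. *Col6a1* fell by 0.86 in females against males (SE 0.16, limma adjusted p = 9.79e-05), *Col4a1* by 0.56 (SE 0.13, limma adjusted p = 0.000800), *Col6a2* by 0.60 (SE 0.15, limma adjusted p = 0.00128), *Col5a1* by 0.83 (SE 0.22, limma adjusted p = 0.00230), *Col12a1* by 0.63 (SE 0.17, limma adjusted p = 0.00411) and *Col4a2* by 0.58 (SE 0.18, limma adjusted p = 0.0110), all on the log2 scale. The median was -0.57 over the 10 collagens and -0.01 over all genes. Endothelial markers moved with them: 9 of 10 were called lower in females (median -0.69), and their summed level was 46.0 to 88.3 CPM in APOE-TR females against 104 to 172 CPM in APOE-TR males, without overlap, and 90.5 to 135 against 82.6 to 112 CPM in B6. Their part in the collagen difference was not tested.

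The levels show where the difference lay. *Col4a1* in APOE-TR mice had a lowest, median and highest level of 3.75, 14.4 and 22.6 CPM in the 16 females and 19.1, 23.7 and 32.9 CPM in the 16 males. In B6 mice they were 4.21, 7.43 and 10.9 CPM in the 8 females and 3.95, 7.74 and 9.36 CPM in the 8 males, nearly the same range. *Col12a1*, which coats collagen fibrils, was at 2.98, 9.53 and 15.5 CPM in APOE-TR females and 13.4, 17.0 and 20.05 CPM in APOE-TR males, which overlapped only at their ends. *Col14a1* was at 0.144, 0.537 and 0.794 CPM against 0.658, 1.03 and 1.40 CPM. *Col6a1* was lower in females of both tables, at 7.88, 42.7 and 70.8 against 42.3, 54.6 and 70.6 CPM in APOE-TR and at 8.89, 16.9 and 30.4 against 20.2, 31.9 and 77.4 CPM in B6.

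**Figure D5:**
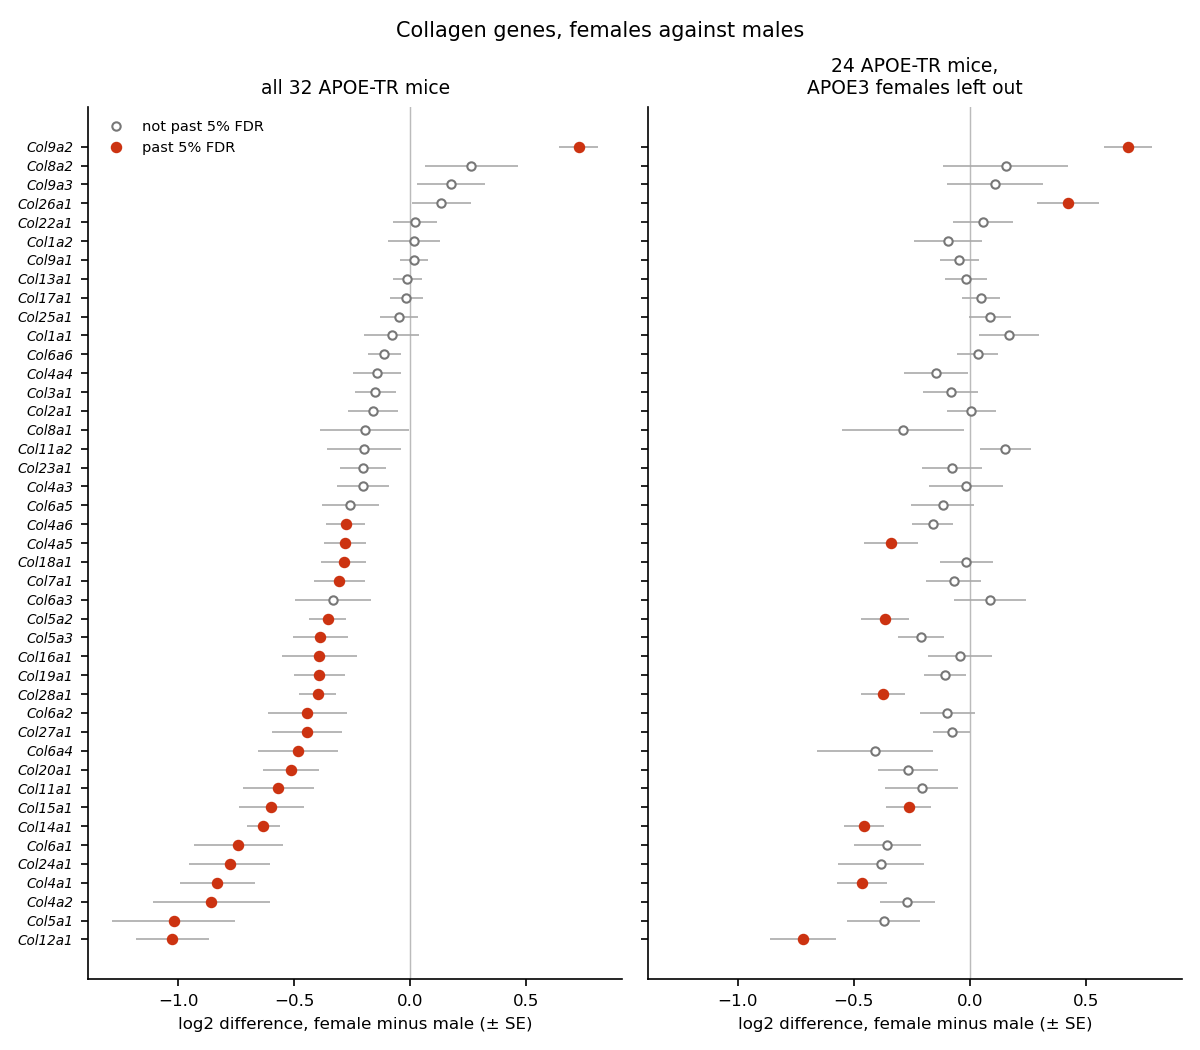
Log2 difference between females and males (x axis, female minus male, limma, ± SE) of 43 collagens in the 32 APOE-TR mice (left) and in the 24 that remain without APOE3 females (right), in the order of the left panel, with red points past a 5% FDR and open points otherwise. On the left 22 are called lower in females and 1 higher, and on the right 7 and 2.

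In B6 mice alone 2 of 10 collagens were called, both lower in females, where 13.8% of genes were lower and 11.5% higher: *Col6a1* (-1.15, SE 0.28, limma adjusted p = 0.00487) and *Col6a2* (-0.97, SE 0.28, limma adjusted p = 0.0150). *Col4a1* (-0.09, SE 0.22) and *Col4a2* (-0.11, SE 0.22) were near 0 there and *Col12a1* was at 0.10 (SE 0.32). Markers of other cell types differed between the same mice. Astrocyte markers summed to 3053 to 3530 CPM in B6 control females and 1030 to 2313 CPM in B6 control males, and neuron markers to 5989 to 6464 against 2185 to 4627 CPM, without overlap. With nPM both sums overlapped between the sexes, at 2331 to 2803 against 1253 to 2864 CPM and 4163 to 6306 against 3676 to 4697 CPM. Their part in the difference of *Col6a1* and *Col6a2* was not tested. In APOE-TR mice alone 22 of 43 were lower and 1 was higher, where 30.5% of genes were lower and 30.1% higher. *Col14a1* (-0.63, SE 0.07, limma adjusted p = 1.85e-08) and *Col12a1* (-1.02, SE 0.16, limma adjusted p = 2.46e-06) led the lower group, and *Col9a2* (0.73, SE 0.08, limma adjusted p = 2.72e-08) was the higher collagen, at 2.61, 3.63 and 5.62 CPM in females and 1.25, 2.17 and 2.91 CPM in males.

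The APOE-TR difference moved with the length slope, which itself differs between the sexes. With it as a covariate, 2 collagens stayed lower, *Col14a1* (-0.38, SE 0.08, limma adjusted p = 0.000503) and *Col4a5* (-0.44, SE 0.12, limma adjusted p = 0.00539), where 16.4% of genes were lower. Another 6 were higher, where 20.9% of genes were: *Col9a2* (0.47), *Col27a1* (0.36), *Col11a2* (0.53), *Col26a1* (0.57), *Col4a2* (0.50) and *Col25a1* (0.25). *Col4a2* thus changed from -0.86 to 0.50, and *Col6a1* (0.17), *Col6a2* (0.34) and *Col5a1* (0.28) changed sign without being called, while *Col4a1* was at -0.01 and *Col12a1* at -0.36 (limma adjusted p = 0.0518). Without APOE3 females, 2 of 10 collagens were called over all remaining mice, *Col6a1* and *Col6a2*, where 23.1% of genes were called. In APOE-TR mice alone without them, 7 of 43 were lower (20.6% of genes) and 2 higher (19.9% of genes); *Col4a1* (-0.46), *Col12a1* (-0.72), *Col14a1*, *Col15a1*, *Col28a1*, *Col4a5* and *Col5a2* were lower and *Col9a2* and *Col26a1* higher. The covariate is not independent of sex: every APOE-TR male has a slope above every APOE-TR female.

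Genes that make, bind or lie beside collagen were read from lists. Of 26 biosynthesis genes, 15 were tested for nPM over all mice, and 1 was called: *Bmp1*, which removes the propeptides of fibrillar procollagens, was higher (log2 change 0.43, SE 0.13, limma unadjusted p = 0.00165, adjusted p = 0.301). Of 10 collagen receptors 4 were tested and of 16 basement membrane partners 8, and none was called; the laminin chain *Lama5* was at 0.41 (SE 0.16) and *Sparc*, a collagen-binding glycoprotein, at -0.32 (SE 0.15). In APOE3 females 0 of 25 biosynthesis genes and 0 of 8 receptors were called; *Bmp1* was at 0.97 (SE 0.30), *Serpinh1* at -0.45 (SE 0.18) and *Sparc* at -0.65 (SE 0.21). No gene of the 3 lists was called for nPM in the other 5 strata.

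Between alleles no gene of these lists was called over all mice or in any of the 4 strata. In control females 7 of 25 biosynthesis genes were higher and 2 lower in APOE4 at an unadjusted p under 0.05, 3 of 8 receptors were higher and 0 lower, and 6 of 16 basement membrane partners were higher and 2 lower, where 20.8% of genes were higher and 20.4% lower, led by *Bmp1* (1.01, SE 0.26) and the lysyl hydroxylase *Plod3* (0.97, SE 0.28). In nPM males the collagen receptor *Ddr2* was at -0.58 (SE 0.13, limma adjusted p = 0.128) and the integrin chain *Itga1* at -0.46 (SE 0.13). Between the sexes 18% of genes were called higher and 18.4% lower in females. Of 15 biosynthesis genes 1 was higher and 5 lower, with the prolyl hydroxylase *P4ha2* (-0.54, SE 0.11, limma adjusted p = 0.000318) and *Bmp1* (-0.54, SE 0.13) lowest in p, 2 of 4 receptors were higher and 1 lower (*Itgb1* at 0.21, *Itga1* at -0.44), and 5 of 8 basement membrane partners were lower, led by *Lamc1* (-0.68, SE 0.12) and *Lama5* (-0.81, SE 0.16), the laminin chains that share the basement membrane with *Col4a1* and *Col4a2*.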

How the data were processed

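Cortex RNA of mice perfused with saline was sequenced single-end from stranded poly(A) libraries. Per the labels and the study's methods, the authors aligned reads with TopHat2 2.0.8b in Partek Flow to mm10 (GRCm38) with RefSeq genes, keeping unique reads, and deposited CPM values per gene. The depth scale of the CPM is not given in the sources used here. In each library the lowest value is that of genes without reads and low values step by whole reads, from which reads were estimated. In APOE-TR libraries 94.7 to 95.6% of low values came out whole within 0.05, so counts were recovered there. In B6 libraries 79.5 to 96.2% did, so count tests were not run on them.

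CPM were scaled by TMM, and log2(CPM + 0.5) was fitted with limma 3.58.1 (trend, two-sided) in R 4.3.3 over all genes with reads in every mouse of the fit, and p values were adjusted by Benjamini-Hochberg over all genes tested. nPM effects were called at an unadjusted p under 0.005, the study's threshold, and allele, sex and interaction effects at a 5% FDR. Fits over all mice held sex, genotype and treatment. Alternatives used edgeR 4.0.16 and DESeq2 1.42.0 on recovered reads, limma-voom with ComBat (sva 3.50.0), other scalings, pseudocounts of 0.1 and 2, no filter, a minimum of 10 reads, the length slope as covariate, subsets, and each mouse left out. The fitting code was tested on simulated data.

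Values of single mice are printed for part of the members called in a fit, of *Col4a1*, *Col4a2*, *Col1a1*, *Col1a2* and *Col3a1*, and of the 2 collagens with the smallest p in each nPM and allele stratum. The others are given by a range of levels, a log2 change or their name alone. The members and lists were chosen with earlier results of these data known. A library named E3 F6 in its table matched no sample label fully and was used as an APOE3 control female without number pairing. Exon lengths and coding sequences came from the GENCODE annotation of mm10, and promoter windows from RefSeq.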

Additional observations from a re-analysis of the deposited data

Results flagged for a closer look

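For 20 named collagens, each group of 4 mice was searched for a mouse whose gap to the nearest other mouse took most of the group's range (Dixon's test). Of 238 groups, 13 held such a mouse, and chance alone flags about 1 in 20 groups. Their causes were not tested.

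Among vascular chains, *Col4a1* was at 5.36 CPM in B6 control female 43 against 7.28 to 7.59 CPM in the other 3. *Col4a2* was at 23.7 CPM in APOE4 control male 32 against 30.3 to 30.8 CPM. In the collagen VI family, *Col6a1* was at 70.8 CPM in APOE4 nPM female 8 against 45.7 to 49.1 CPM. *Col6a3* was at 5.01 CPM in APOE3 control male 73 against 2.02 to 2.47 CPM, and at 4.32 CPM in APOE3 nPM male 53 against 2.22 to 2.43 CPM.

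Among fibrillar chains, *Col1a1* was at 4.04 CPM in B6 nPM female 52 against 0.241 to 0.462 CPM, and *Col5a1* at 7.02 CPM in B6 control male 3 against 1.56 to 2.19 CPM. *Col11a2* was at 3.12 CPM in APOE3 nPM female 55 against 7.94 to 8.47 CPM, the low mouse of this set. Among FACIT chains, *Col9a3* was at 6.48 CPM in APOE3 nPM male 76 against 1.93 to 2.50 CPM. *Col20a1* was at 3.07 CPM in APOE4 nPM female 23 against 1.15 to 1.23 CPM. Outside these classes, *Col26a1* was at 4.71 CPM in APOE4 control male 91 against 3.52 to 3.69 CPM. In B6 nPM female 53, *Col20a1* was at 0.843 CPM and *Col17a1* at 0.559 CPM, levels of 6 and 4 reads, whereas the other 3 mice held no reads of *Col20a1*.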

How the results depend on the processing

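Of 492 recomputed counts and correlations, 459 were rated the same as the main result, 32 were rated moved and 1 weaker. A count was rated the same when it equalled the main count or, with at least 1 call in both, lay close to it. Of 1167 recomputed values of named collagens, 1122 kept their sign and their side of the threshold. Another 19 passed anew, 18 no longer passed and 8 changed sign. The fits on APOE-TR males or females, those combining the APOE-TR mice with the length slope, and those omitting APOE3 females or shallow B6 libraries were chosen after seeing the data, as was leaving out each mouse in the fits over all mice. The cause of the changes below was not tested. No paired analysis was possible because no groups compared share more than 1 animal number. Count tests and the minimum of 10 reads were not run on B6 mice.

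The number of collagens called for nPM over all mice was 0, and became 1 with the length slope (165 of 11072 genes), 2 in females alone (398 of 11524) and 0 to 1 with a mouse left out. In B6 males it went from 0 to 1 with the length slope (63 of 15364 genes). In APOE3 females it went from 1 to 2 by DESeq2 (467 of 16386 genes) and to 9 of 43 with a variance shared over the groups of the table (5011 of 15965), and ran from 0 to 2 with a mouse left out. In APOE4 females DESeq2 called 1 in place of 0 (86 of 16551 genes). With a mouse left out it ran from 0 to 1 in B6 females, in APOE4 females and in APOE4 males, and likewise from 0 to 1 where females and males were compared in their nPM response.

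Between alleles over all mice, 0 collagens became 1 with limma-voom and ComBat (305 of 16952 genes), 4 in the 32 APOE-TR mice (913 of 15413), 4 there with the length slope (422 of 15413), 1 in APOE-TR males (290 of 15882) and 9 in APOE-TR females (3683 of 15515). *Col4a2* turned to -0.0365 in those males, -0.00898 with the length slope and -0.0896 without APOE3 females. In control females 0 became 9 of 44 by DESeq2 (3989 of 16409 genes) and 20 of 43 with the shared variance (8830 of 15965), and ran from 0 to 21 with a mouse left out, the highest beside 6403 of 16467 genes. Between sexes, 6 of 10 (4031 of 11072 genes) became 19 of 44 without the filter on low values (4121 of 16952), 26 of 44 with limma-voom (6414 of 16952), 23 of 43 in APOE-TR mice alone (9338 of 15413), 2 of 10 in B6 mice alone (2807 of 11084) and 2 of 10 without APOE3 females (2557 of 11075). The share of collagens was thus below that of all genes in APOE-TR mice alone, B6 mice alone and without APOE3 females. In B6 mice *Col12a1* turned to 0.10. In APOE-TR mice with the length slope, *Col6a1* turned to 0.17, *Col6a2* to 0.34, *Col5a1* to 0.28 and *Col4a2* to 0.50. The correlation of *Col1a2* with *Col3a1* in B6 mice was 0.640 without 2 mice. Low depth limits B6 mice most: 34 collagens lacked reads in at least 1 of them.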

Other observations

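Summed over each class, collagens of the 12 groups spread differently. The 6 collagen IV chains together ran from 9.04 to 29.2 CPM in APOE3 control females and from 20.7 to 57.0 CPM in APOE3 nPM females. In the 4 groups of APOE-TR males they ran from 45.7 to 78.2 CPM, above every APOE3 control female, and in B6 mice from 18.1 to 34.9 CPM. The 4 transmembrane chains, of which the neuronal *Col25a1* is the most abundant, ran over a narrower range of 27.4 to 58.5 CPM in APOE-TR mice and shared it between sexes, alleles and treatments. *Col25a1* itself had a lowest, median and highest level of 23.7, 33.7 and 49.5 CPM in APOE-TR mice and of 13.8, 27.9 and 68.3 CPM in B6 mice.

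The 2 multiplexins, basement membrane collagens whose C-terminal fragments are released as restin and endostatin, summed to 1.30 to 3.83 CPM in APOE3 control females and 4.15 to 6.39 CPM in APOE-TR males. In the 32 APOE-TR mice, *Col15a1* was lower in females (log2 difference -0.60, SE 0.14, limma adjusted p = 0.000511), as was *Col18a1* (-0.29, SE 0.10, limma adjusted p = 0.0107). In this fit 30.5% of genes were called lower in females. With the length slope as a covariate neither was called. Without APOE3 females *Col15a1* was called lower and *Col18a1* was not. Short-chain collagens, among them *Col8a1* and *Col8a2* of vessel walls and cornea, summed to 3.14 to 15.1 CPM in APOE-TR mice. Choroid plexus markers summed to 8.85 to 1483 CPM in the same mice, and their part in the short-chain levels was not tested.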
